A study of Rattus norvegicus with 3 samples.

Results

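Interleukins are secreted proteins by which immune cells and resident cells of a tissue signal to each other, and their receptors are built from chains that families of interleukins share. The genes described here are the interleukins and interleukin receptors as the rat gene symbols name them: every gene whose symbol begins with Il and a number, with 1 row per symbol. The rule found 80 of 30957 genes, namely 36 ligands, 35 receptor chains, 7 antagonists, binding proteins or decoy receptors, and 2 genes that are neither. The 2 others carry an interleukin name only by convention: Il4i1 is an enzyme that oxidises amino acids, and Il1rapl1 is a synaptic adhesion protein.

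The animals were 3 Sprague-Dawley males that had undergone cerebral ischemia and reperfusion (rats 19, 35 and 70), and RNA of each rat's motor cortex was sequenced as 1 library. The brain's blood supply is interrupted and then restored in this model, and the labels add a time of 8 weeks without saying whether it is an age or a time after the operation. All 3 rats belong to the same group and no untreated rat was analysed here, so the values describe levels and their spread between animals, not an effect of ischemia. The labels state neither the side of the cortex nor its distance from the lesion.

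In the brain, microglia carry many cytokine receptors and are a main source of interleukin 1 family ligands. Receptors of the interleukin 1 and 17 families signal through the adaptors Myd88 and Act1 to NF-kappaB, whereas most other interleukin receptors use Jak kinases and Stat transcription factors. Interleukin 1 beta and interleukin 18 are made as precursors that inflammasomes and caspase-1 process. Interleukin 33 is kept in the nucleus until cells are damaged, and interleukin 34 is a neuronal ligand of the receptor Csf1r on microglia.

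Levels are given as FPKM, fragment counts normalized to the length of the transcript and the size of the library, a level per length that allows genes to be set beside each other. The steps between the lowest values gave about 15600000, 16500000 and 16100000 fragments behind the values of rats 19, 35 and 70, so 1 fragment on a transcript of 1 kb was worth 0.0643, 0.0607 and 0.0623 FPKM. Differences between rats are on the scale log2(FPKM + 1), which understates the change of low genes, and a gene is called over 2-fold apart when its highest and lowest rats lie more than 1 unit apart on that scale. Calls are made for genes with a mean of 1 FPKM or more over the 3 rats, which 28 of the 80 interleukin genes reached, against 45.7% of all genes. The libraries differed in cell type markers: the sum of 10 neuron markers was 1357, 59.4 and 1856 FPKM in rats 19, 35 and 70, and all 10 were lowest in rat 35. Neuron markers of cortex were thus abundant in rats 19 and 70 and low in rat 35, and the spread is given with and without rat 35.

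A RefSeq start site (assembly GRCr8) was matched by symbol for 63 of the 80 genes. A missing match does not show that RefSeq lacks a start for the gene. The 5 genes shown span the patterns in the values. Il6st and Il1r1 are receptor chains highest in rat 35, and Il1rap is a receptor chain highest in rat 70. Il20rb has the widest spread, and Il33 is a ligand with a narrow one. The 250 bases before each start are shown. They lie at chr2:45809982-45810231 on the plus strand (Il6st), chr9:50034133-50034382 on the plus strand (Il1r1), chr11:87704343-87704592 on the minus strand (Il1rap), chr8:109888964-109889213 on the minus strand (Il20rb) and chr1:237115323-237115572 on the plus strand (Il33). Each is printed 5′ to 3′ along its gene, and capitals mark matches to the searched motifs.
Il6st: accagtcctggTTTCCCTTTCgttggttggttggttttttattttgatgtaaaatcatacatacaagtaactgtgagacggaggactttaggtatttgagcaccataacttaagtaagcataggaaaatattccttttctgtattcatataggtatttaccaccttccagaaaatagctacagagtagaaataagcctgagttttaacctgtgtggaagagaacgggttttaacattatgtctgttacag
Il1r1: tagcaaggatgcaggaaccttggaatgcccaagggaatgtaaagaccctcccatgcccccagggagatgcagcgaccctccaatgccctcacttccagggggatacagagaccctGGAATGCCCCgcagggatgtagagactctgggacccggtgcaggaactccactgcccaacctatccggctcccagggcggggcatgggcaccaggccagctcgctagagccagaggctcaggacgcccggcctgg
Il1rap: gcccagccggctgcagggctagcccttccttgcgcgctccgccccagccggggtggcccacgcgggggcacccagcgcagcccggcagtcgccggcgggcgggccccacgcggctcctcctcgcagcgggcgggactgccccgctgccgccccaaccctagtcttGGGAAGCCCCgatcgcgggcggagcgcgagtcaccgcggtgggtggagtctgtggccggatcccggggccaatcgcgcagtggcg
Il20rb: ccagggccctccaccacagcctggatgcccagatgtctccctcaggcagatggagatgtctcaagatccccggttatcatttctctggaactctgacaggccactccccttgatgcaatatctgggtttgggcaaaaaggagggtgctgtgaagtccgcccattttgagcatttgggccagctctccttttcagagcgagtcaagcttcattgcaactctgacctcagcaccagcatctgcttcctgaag
Il33: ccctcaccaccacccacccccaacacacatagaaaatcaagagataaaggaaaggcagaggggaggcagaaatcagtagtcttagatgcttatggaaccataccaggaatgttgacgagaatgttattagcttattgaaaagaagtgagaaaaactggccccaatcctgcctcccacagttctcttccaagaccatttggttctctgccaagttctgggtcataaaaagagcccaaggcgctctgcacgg
The motifs were searched on both strands. The NF-kappaB motif was held by 7 of 63 interleukin promoters, a share of 11.1%, against 3.54% of all 33469 promoters, and 2 of its matches are the capitals at base -135 of Il1r1 and base -85 of Il1rap, both read on the strand opposite to the one printed. The interferon-type motif was likewise held by 7 of 63, against 3.41% of all promoters, and its match at base -239 of Il6st is also on the opposite strand. The AP-1 motif TGANTCA and the STAT motif TTCNNNGAA were each held by 6 of 63 promoters, or 9.52%, against 6.34% and 7.67% of all promoters. The PU.1 motif GAGGAAGT was held by 1 of 63, against 2.04% of all. None of these motifs is in the windows of Il20rb and Il33. Of the 25 promoters of genes at a mean of 1 FPKM or more, 1 (4%) held the interferon-type motif. The NF-kappaB and AP-1 motifs were each held by 3 of these 25 (12%), and the STAT and PU.1 motifs by none. The median GC content was 56.8% for the 25 promoters of genes at 1 FPKM or more and 46.6% for the 38 of genes below it, with 51.2% for all promoters; a match of letters does not show that a factor binds.

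Among the ligands, 7 of 36 reached a mean of 1 FPKM, against 45.7% of all genes: Il18, Il34, Il33, Il16, Il15, Il17d and Il12a. Il18, which induces interferon gamma, was the most abundant, at 27.2 FPKM in rat 19, 59.4 FPKM in rat 35 and 8.23 FPKM in rat 70 (mean 31.6 ± 25.9, SD, n = 3). Its level was 7.22-fold apart between rats 35 and 70. The Il18 gene (chromosome 8, 54993859 to 55016299, Rnor 6.0) overlaps 2 genes on the opposite strand. Bco2, over 5006 bases, was listed at 3.44, 10.9 and 2.24 FPKM in rats 19, 35 and 70, in the same order of rats. Tex12, over 1013 bases, was listed at 0.691, 0 and 0.167 FPKM, lowest in rat 35. No source used here says whether counting used the strand, so reads of these overlapping genes may not have been separated.

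Il34, a ligand of the microglial receptor Csf1r, had 23.1 FPKM in rat 19, 9.06 FPKM in rat 35 and 15.3 FPKM in rat 70. Il33, an alarmin of the interleukin 1 family, had 17.8, 11.2 and 13.8 FPKM in rats 19, 35 and 70 (14.3 ± 3.31, SD, n = 3), a 1.59-fold spread. Both were highest in rat 19 and lowest in rat 35. The same order of extremes held for Il17d, a member of the interleukin 17 family, at 5.27, 1.97 and 2.38 FPKM in rats 19, 35 and 70. Il12a, the p35 subunit of interleukins 12 and 35, also had its lowest value in rat 35 and was close in the other rats, at 2.52, 1.67 and 2.44 FPKM.

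The other ligands above the minimum followed Il18 in being highest in rat 35. Il16, a chemoattractant for CD4-bearing cells, had 4.61, 11.8 and 7.04 FPKM in rats 19, 35 and 70. Il15, which sustains NK cells and memory T cells, had 4.86, 7.70 and 1.78 FPKM. In all, 3 of the 7 ligands were highest in rat 35, against 45.4% of all genes. Rat 19 was highest for 4, against 24.8%, and rat 70 for none, against 29.8%. Of the 7, 5 were over 2-fold apart, against 42.5%. The median deviation of the 7 ligands from their own 3-rat means was 0.17, -0.25 and -0.05 (log2) in rats 19, 35 and 70.

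The classical early cytokines were near the limit of the libraries. Il1b had 0.552, 1.04 and 0.491 FPKM in rats 19, 35 and 70, which is 8.59, 17.2 and 7.88 fragments per kilobase. The smallest whole numbers of fragments that give these Il1b values are 12, 24 and 11, whose 95% Poisson intervals are 6.20 to 21.0, 15.4 to 35.7 and 5.49 to 19.7; the true numbers may be a common multiple, and the intervals cover counting error only. The difference in Il1b between rats was not tested. Il1a, the other agonist of the same receptor, had 0.511, 1.93 and 0.0353 FPKM, or 7.94, 31.8 and 0.568 fragments per kilobase. Il1a and Il1b reached 1 FPKM in rat 35 only, so naming them by this minimum fixed their highest rat. Il25, of the interleukin 17 family, had 1.64, 0.344 and 0.588 FPKM and reached 1 FPKM in rat 19 only. Il6 stayed under 1 FPKM, with 5.74, 15.3 and 9.57 fragments per kilobase in rats 19, 35 and 70.

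**Figure D1:**
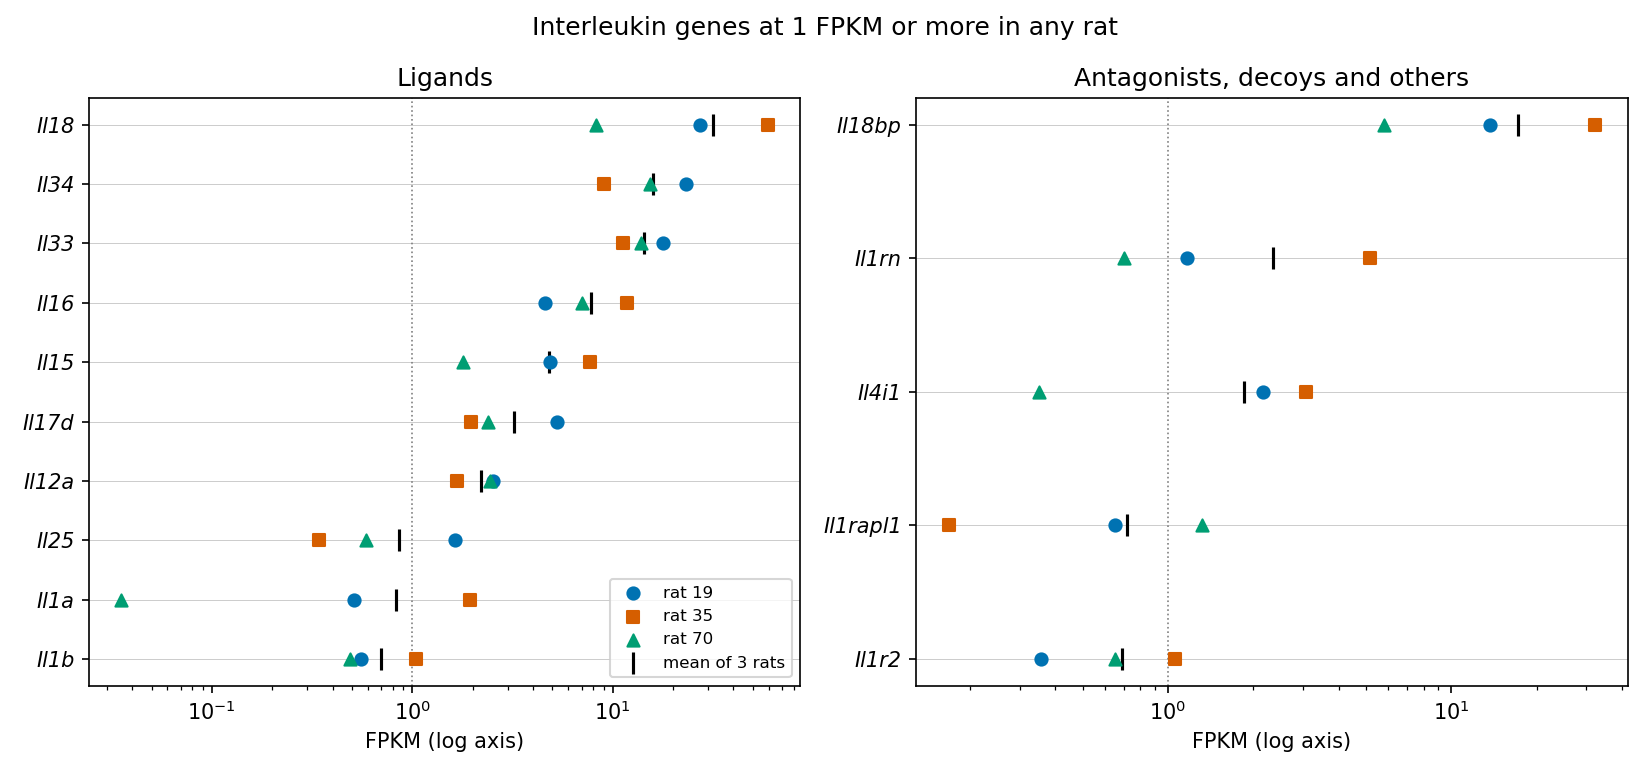
FPKM (log scale) of each ligand, antagonist and other interleukin gene that reached 1 FPKM in any rat, with 1 point per rat, a bar at the mean of the 3 rats and a dotted line at 1 FPKM. Il18 ranges from 8.23 FPKM in rat 70 to 59.4 FPKM in rat 35, whereas Il34 and Il33 are lowest in rat 35. Il1a, Il1b and Il1r2 reach 1 FPKM only in rat 35, Il25 only in rat 19 and Il1rapl1 only in rat 70. The minimum thus fixed the highest rat of these genes.

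Of the 7 antagonists, binding proteins and decoy receptors, Il18bp and Il1rn reached a mean of 1 FPKM. Both were highest in rat 35, against 45.4% of all genes. Il1r2 reached 1 FPKM in rat 35 only, so naming it by this minimum fixed its highest rat. Il22ra2 and Il13ra2, under 1 FPKM in every rat, were highest in rat 19. Il18bp, which binds and neutralises interleukin 18, had 13.7, 32.2 and 5.80 FPKM in rats 19, 35 and 70. Il1rn, which occupies the interleukin 1 receptor without signalling, had 1.17, 5.18 and 0.702 FPKM. Il1r2, the decoy receptor of interleukin 1, had 0.357, 1.06 and 0.649 FPKM, or 5.56, 17.4 and 10.4 fragments per kilobase. Il18bp and Il1rn were both over 2-fold apart and both had the order of rats 35, 19, 70 from high to low. Of the genes outside these roles, Il4i1 had 2.16, 3.07 and 0.350 FPKM, and Il1rapl1 had 0.653, 0.168 and 1.32 FPKM, its lowest value being in rat 35.

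Ratios between partners were compared within each rat. Il1rn exceeded Il1b in all rats, by 2.11-fold, 4.96-fold and 1.43-fold in rats 19, 35 and 70. Il18bp was 0.50, 0.54 and 0.71 of Il18, the smallest spread between rats of the 9 pairs computed. Il1r2 was 0.04, 0.05 and 0.16 of Il1r1, and Il13ra2, the decoy of interleukin 13, was below 0.04 of Il13ra1 in every rat. Il33 exceeded its receptor Il1rl1 by 11.4-fold, 2.77-fold and 23.4-fold, and Il6st exceeded Il6r by 2.60-fold, 5.86-fold and 4.06-fold. Il10rb exceeded Il10ra by 1.98-fold, 1.68-fold and 1.13-fold. For these 7 pairs all 3 rats lay on one side of equality, which gives p = 0.25 in a two-sided exact sign-flip test, the smallest value that 3 rats allow (0.32 after Benjamini-Hochberg adjustment over 9 pairs). The other pairs changed sides: Il1rap was 0.87, 0.38 and 3.89 of Il1r1 (exact p = 1), and Il34 was 2.31, 0.47 and 1.94 of Csf1, the other ligand of Csf1r (exact p = 0.75).

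Among the receptor chains, 18 of 35 reached a mean of 1 FPKM, against 45.7% of all genes. Of these 18 chains, 17 were highest in rat 35, against 45.4% of all genes. Il6st, the signalling chain gp130 shared by the interleukin 6 family, was the most abundant interleukin gene, with 23.9, 116 and 29.1 FPKM in rats 19, 35 and 70 (56.4 ± 51.9, SD, n = 3). Rat 35 stood 4.0-fold above the next rat. Il6r, the chain that binds interleukin 6, had 9.18, 19.8 and 7.16 FPKM. Il11ra1, which binds interleukin 11 and also signals through gp130, had 13.2, 14.5 and 12.3 FPKM (13.3 ± 1.13, SD, n = 3) and was the most even of the 28 genes, with a 1.18-fold spread. Il12rb2, a chain of the interleukin 12 receptor, had 0.0800, 0.151 and 1.84 FPKM, or 1.24, 2.49 and 29.6 fragments per kilobase, and stood high in rat 70 alone.

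Chains of the interleukin 1 family differed in direction. Il1r1, the receptor of interleukin 1 (chromosome 9, 46962288 to 47036670, Rnor 6.0), had 8.79, 22.9 and 4.07 FPKM in rats 19, 35 and 70. Its co-receptor Il1rap had 7.66, 8.65 and 15.8 FPKM and was the one receptor chain highest in rat 70 among those above the minimum. Il1rl1, the receptor of interleukin 33, had 1.57, 4.05 and 0.590 FPKM, and Il18rap, the co-receptor of interleukin 18, had 0.618, 1.31 and 0.951 FPKM. Il17ra, the chain common to most interleukin 17 receptors, had 17.9, 46.3 and 13.4 FPKM, and its partner Il17rc had 2.09, 5.37 and 1.44 FPKM. Il17rd, a related receptor, had 0.484, 0.475 and 1.04 FPKM, and reached 1 FPKM in rat 70 only.

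The 3 chains of the interleukin 10 family above the minimum were highest in rat 35, against 45.4% of all genes. Il10ra, the chain that binds interleukin 10, had 6.03, 19.2 and 5.69 FPKM in rats 19, 35 and 70, and the shared chain Il10rb had 11.96, 32.3 and 6.46 FPKM. Il20rb, a chain of the receptors of interleukins 19, 20 and 24, had 1.16, 15.2 and 1.97 FPKM, the widest spread on the log scale among the 28 genes. Its level in rat 35 was 7.72-fold above that in rat 70. Its partner Il20ra was listed at 0 in every rat. Of the ligands of these receptors, Il10, Il19, Il20 and Il22 were each above 0 in 1 rat, and Il24 was listed at 0.

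All 7 genes of the common gamma chain family and interleukin 13 that reached the minimum, Il15 among them, were also highest in rat 35. Of all genes at the minimum, 45.4% were highest in that rat. Il2rg, the common gamma chain itself, had 2.23, 6.09 and 0.579 FPKM in rats 19, 35 and 70. Il21r had 2.54, 9.82 and 0.779 FPKM, a 12.6-fold spread, and Il4r, which lies beside it on chromosome 1 within 81.8 kb, had 5.69, 14.0 and 3.83 FPKM. Il7r, which binds interleukin 7 and takes part in the TSLP receptor, had 3.13, 6.63 and 1.09 FPKM. Il13ra1 had 3.31, 16.7 and 4.62 FPKM, with its lowest value in rat 19 and not in rat 70. Il15ra was the least varied of them, at 1.28, 1.67 and 0.561 FPKM. Il3ra, the interleukin 3 chain that pairs with the common beta chain, had 15.9, 30.4 and 4.26 FPKM.

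**Figure D2:**
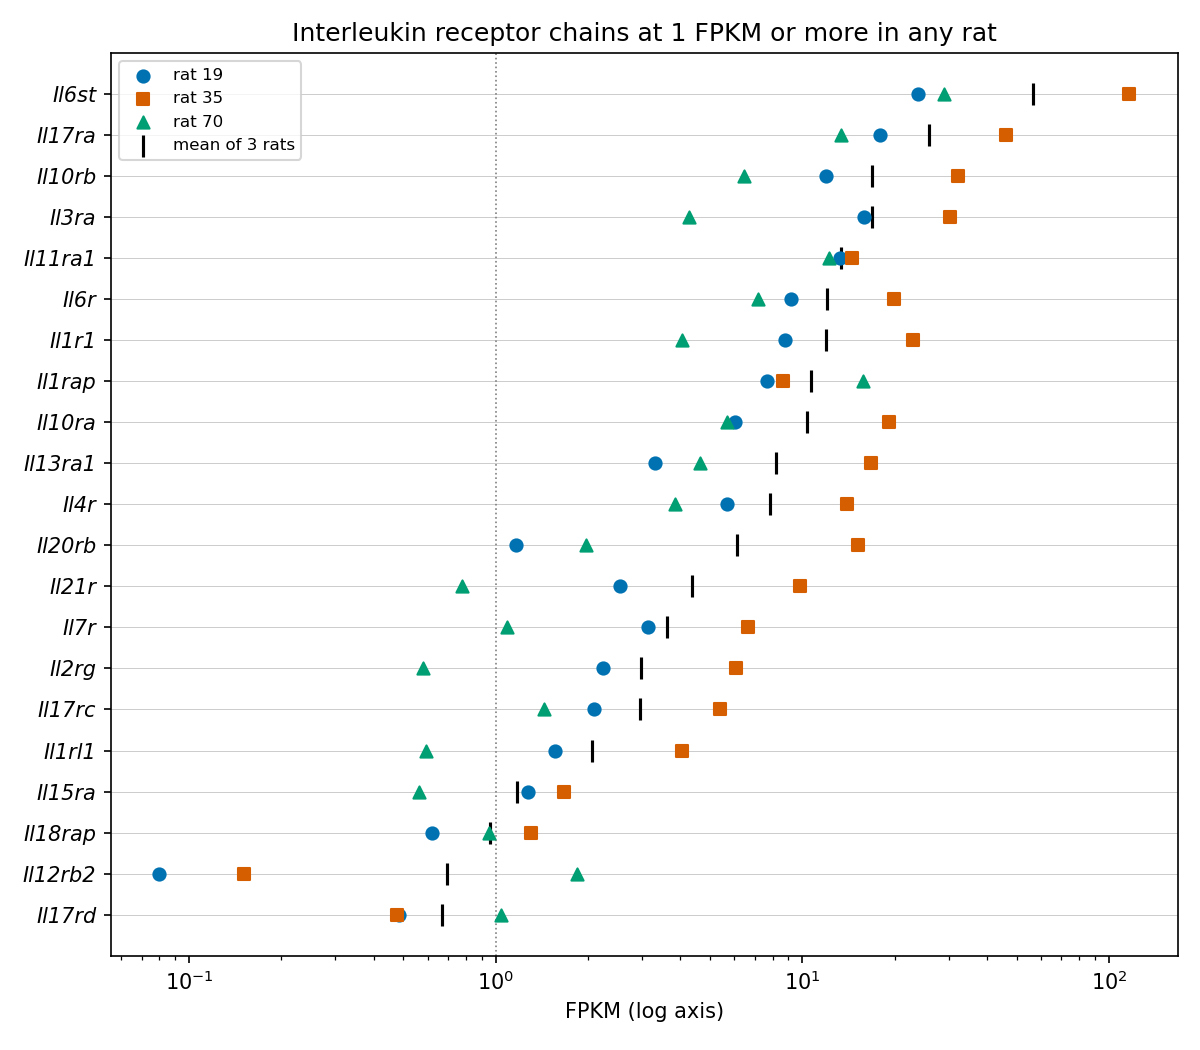
FPKM (log scale) of each receptor chain that reached 1 FPKM in any rat, with 1 point per rat, a bar at the mean of the 3 rats and a dotted line at 1 FPKM. Rat 35 is highest for most chains, Il11ra1 is nearly the same in all rats at 12.3 to 14.5 FPKM, and Il1rap is highest in rat 70. Il12rb2 and Il17rd reach 1 FPKM only in rat 70 and Il18rap only in rat 35, so the minimum fixed their highest rat.

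Over all 28 interleukin genes above the minimum, 23 were over 2-fold apart between rats, against 42.5% of the 14134 genes tested. The highest value was in rat 35 for 23 genes, in rat 19 for 4 and in rat 70 for 1, against 45.4%, 24.8% and 29.8% of all genes. Genes that were both over 2-fold apart and highest in rat 35 numbered 21, against 20.6% of all genes, 2 were over 2-fold apart and highest in rat 19, against 7.87%, and none was over 2-fold apart and highest in rat 70, against 14.0%. Of the 28 genes, 15 stood over 2-fold above both other rats in rat 35, against 10.3%. The lowest value was in rat 70 for 19 genes, against 44.2%. The median deviation from the 3-rat mean was -0.10 in rat 19, 0.93 in rat 35 and -0.68 in rat 70, against 0.02, 0.06 and -0.09 for all genes, and the median SD between rats was 0.87 against 0.45 (log2). Summed over all 80 genes the levels were 253, 549 and 185 FPKM in rats 19, 35 and 70, and the 35 receptor chains made up 142, 396 and 119 FPKM of these sums.

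Between rats 19 and 70 alone, 6 of the interleukin genes were over 2-fold apart, namely Il18, Il18bp, Il3ra, Il15, Il2rg and Il4i1. Of all genes at a mean of 1 FPKM or more over these rats, 11.1% were over 2-fold apart. All 6 were higher in rat 19. Thus 6 of the 28 genes were over 2-fold higher in rat 19 than in rat 70, against 864 of 14134 genes (6.11%). At any distance, 23 of 28 had the higher value in rat 19, against 58.4% of all genes.

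**Figure D3:**
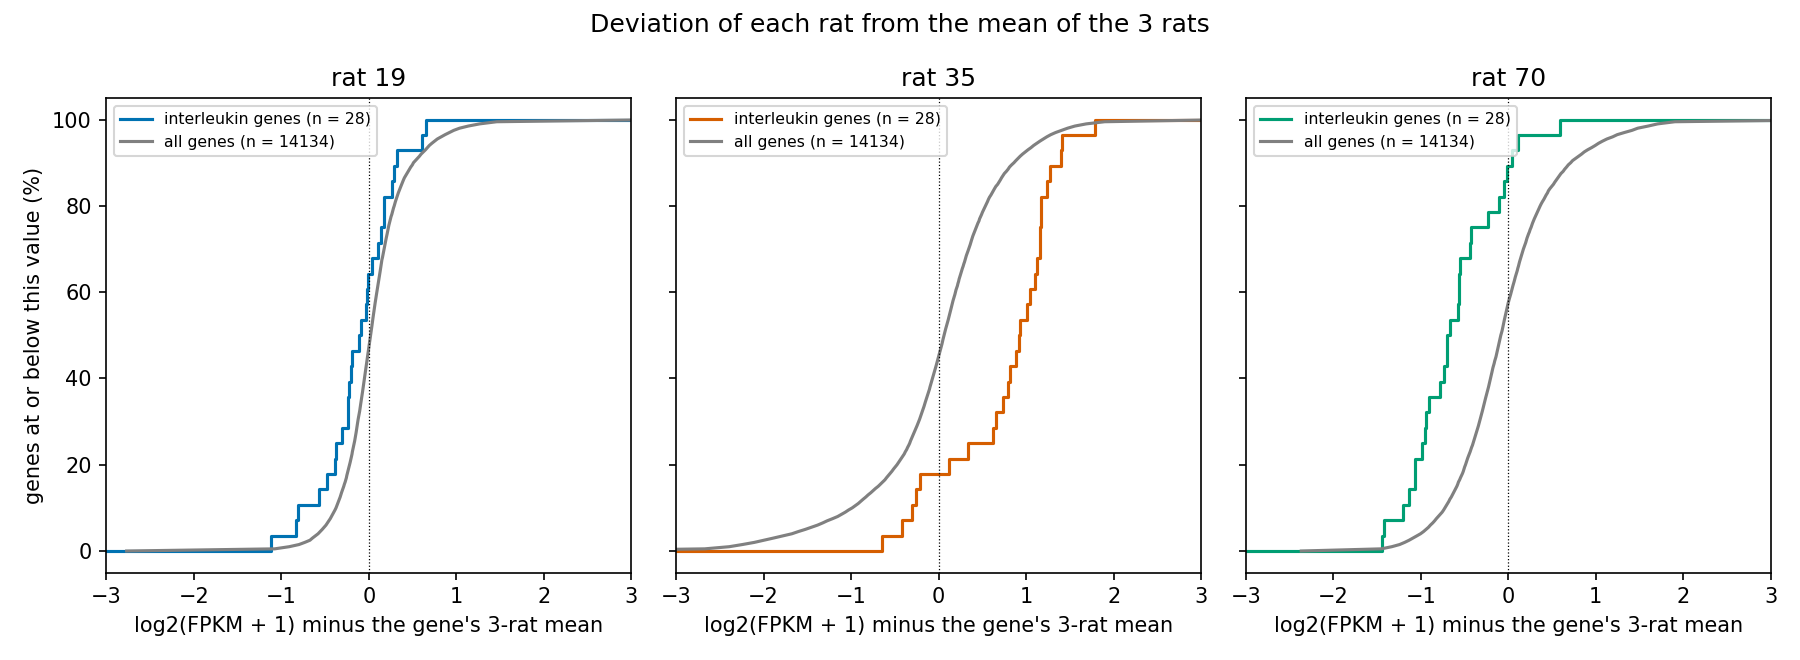
Cumulative share of genes (%) by their deviation in each rat from their own 3-rat mean (log2(FPKM + 1)), for 28 interleukin genes (coloured steps) and 14134 genes (grey). The interleukin curve lies to the right of all genes in rat 35 (median 0.93 against 0.06) and to the left in rat 70 (median -0.68 against -0.09).

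In every rat 44 of the 80 genes were under 1 FPKM, the highest value among them being 0.978 FPKM. Of the 80 genes, 15 (18.8%) were listed at 0 in all rats, against 37.3% of all genes: the T helper ligands Il2, Il4, Il5, Il9, Il13, Il17a and Il17f, the ligands Il3, Il24, Il31 and Il36a, the antagonist-like Il36rn and Il1f10, and the chains Il20ra and Il31ra. A further 15 were above 0 in all rats, among them Il6, Il11, Il21, Il23a, Il27 and the chains Il2ra, Il2rb, Il12rb1, Il18r1, Il27ra and Il1rl2. A listed 0 cannot be read as no transcript, because genes that nearly all cells use, such as Hprt1, Rps6 and Rpl8, were also listed at 0 in all rats.

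With gaps of at most 500000 bases, 37 of the 80 genes fell in 13 neighbourhoods. In the receptor cluster on chromosome 9 (46840992 to 47258503, Rnor 6.0) Il1r1 averaged 11.9 ± 9.79 FPKM and its neighbour Il1rl2 had 0.743, 0.379 and 0.0432 FPKM in rats 19, 35 and 70. On chromosome 3 (1285664 to 1468614) Il1rn was the one gene of 6 to exceed 1 FPKM in a rat. On chromosome 2, Il6st and Il31ra lie within 105 kb of each other, and the second was listed at 0 in every rat. The Th2 ligands Il4, Il13 and Il5 on chromosome 10 were all listed at 0.

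Genes outside the name rule that work with interleukins were read from 4 lists. Of the partner chains and ligands, 17 reached the minimum; 10 were over 2-fold apart, 8 were highest in rat 35 and 6 in rat 70, with 42.5%, 45.4% and 29.8% of all genes. Csf1r had 94.1, 255 and 68.6 FPKM in rats 19, 35 and 70, and Csf2ra, a receptor of GM-CSF, had 18.5, 70.1 and 10.7 FPKM. Osmr, which pairs with gp130 for oncostatin M, had 4.43, 20.5 and 3.88 FPKM. Ptprz1, a phosphatase of astroglial cells that also binds interleukin 34, had 51.9, 31.3 and 57.3 FPKM and was lowest in rat 35.

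Of the Jak kinases, Stat factors and their inhibitors, 17 reached the minimum, 6 were over 2-fold apart, with 42.5% of all genes, and 13 were highest in rat 35, with 45.4%. Jak1 was the most even of those named, with 56.7, 83.4 and 67.0 FPKM in rats 19, 35 and 70. Stat6, the factor of interleukins 4 and 13, had 14.3, 38.4 and 10.2 FPKM, and Stat5a had 4.29, 12.5 and 2.86 FPKM. The phosphatases went different ways: Ptpn6, of blood cells, had 32.8, 110 and 15.4 FPKM, whereas Ptpn11 had 68.1, 55 and 131 FPKM and was highest in rat 70.

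The adaptors and kinases of interleukin 1 and 17 receptors all reached the minimum, 21 genes, of which 10 were over 2-fold apart, with 42.5% of all genes, and 16 were highest in rat 35, with 45.4%. Myd88 had 8.16, 22.9 and 5.78 FPKM, Irak3 had 5.16, 12.1 and 3.17 FPKM, and Nfkb2 had 7.66, 13.6 and 3.27 FPKM in rats 19, 35 and 70. Irak1 varied little, with 54.4, 55.9 and 44.8 FPKM. Nfkbia, the inhibitor of NF-kappaB, had 26.1, 57.6 and 44.6 FPKM, and Tollip, an inhibitor of the receptor complex, had 31.7, 25.1 and 45.7 FPKM. Neither was lowest in rat 70.

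All 11 genes listed for the processing of interleukin 1 beta and interleukin 18 precursors were over 2-fold apart, with 42.5% of all genes. Of these, 8 were highest in rat 35, with 45.4% of all genes. Casp1, the protease, had 12.8, 26.3 and 4.68 FPKM in rats 19, 35 and 70, and Pycard, the inflammasome adaptor, had 16.1, 45.2 and 4.44 FPKM. Their order of rats was that of Il18. Aim2, a sensor of DNA, was instead highest in rat 19, at 10.5, 6.32 and 1.28 FPKM, and Nek7, a partner of the Nlrp3 inflammasome, was highest in rat 70, at 14.4, 26.3 and 32.8 FPKM. Txnip had 77.9, 172 and 72.1 FPKM. The median deviations of this list were -0.13, 0.81 and -0.69 in rats 19, 35 and 70.

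Markers of other cell types differed between the rats along with these levels, and their part in the results was not tested. In bulk tissue, fewer cells of a type and less RNA per cell cannot be told apart. All 10 microglia markers were highest in rat 35 and lowest in rat 70, and their sum was 462, 1441 and 264 FPKM in rats 19, 35 and 70. The 10 markers of neutrophils and monocytes summed to 34.8, 179 and 21.7 FPKM, with S100a9 at 0.61, 77.4 and 2.83 FPKM, while Fpr1 was listed at 0 in all rats and Mpo and Elane were each at 0 in 2 rats. The 12 markers of T and NK cells summed to 24.4, 96.0 and 20.4 FPKM, and without Cd4 and Cd8a the other 10 summed to 7.31, 12.8 and 2.0 FPKM, with Cd3e at 0.43, 1.35 and 0.36 FPKM and Klrb1 at 0. Markers of fibroblasts and meninges summed to 319, 2875 and 269 FPKM, and those of endothelium to 193, 379 and 151 FPKM, both highest in rat 35. Astrocyte markers summed to 3043, 1005 and 1883 FPKM, lowest in rat 35. Of these 8 markers, 6 were lowest in rat 35. Aqp4 (112.6, 54.6 and 16.9 FPKM) and Aldh1l1 (12.4, 4.23 and 3.19 FPKM) were lowest in rat 70. Oligodendrocyte markers summed to 4337, 3646 and 5718 FPKM, and the 6 B cell markers to 1.51, 1.92 and 0 FPKM.

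**Figure D4:**
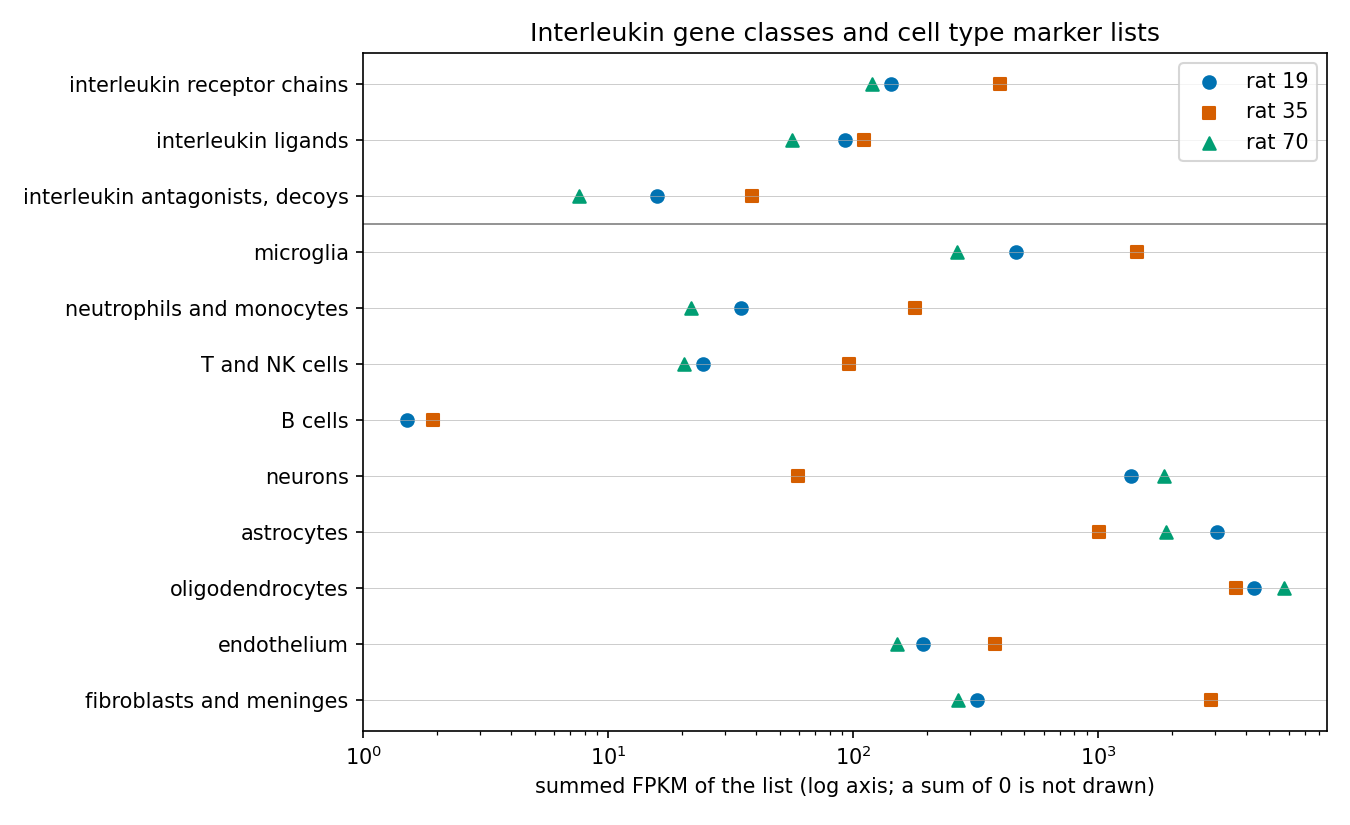
Summed FPKM (log scale) of the cell type markers and of the interleukin genes by role in each rat. The interleukin receptor chains (142, 396 and 119 FPKM) have the order of rats 35, 19, 70 from high to low. Microglia markers (462, 1441 and 264 FPKM) share this order. So do the sums for fibroblasts and meninges, endothelium, neutrophils and monocytes, T and NK cells, and B cells. Neuron markers are lowest in rat 35 (59.4 FPKM).

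Each of the 28 genes was also divided by the summed microglia markers of its rat, a ratio chosen after the data were seen. Other marker sums with the same order of rats were not used as divisors. The sum itself differed between rats, and after the same division 86.3% of all genes were over 2-fold apart, 14.0% were highest in rat 19, 3.25% in rat 35 and 82.8% in rat 70. Of the 28 interleukin genes, 12 were over 2-fold apart, 12 were highest in rat 19, 13 in rat 70, and 3, namely Il20rb, Il21r and Il1rn, in rat 35. The distance between the highest and lowest rats became smaller for 21 genes, such as Il10rb, Il1r1 and Il18bp, against 18.1% of all genes. It became larger for 7: Il34, Il33, Il17d, Il12a, Il16, Il1rap and Il11ra1. Median deviations of the ratios were 0.19, -0.17 and 0.23 (log2) in rats 19, 35 and 70, against 0.25, -1.13 and 0.88 for all genes.

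**Figure D5:**
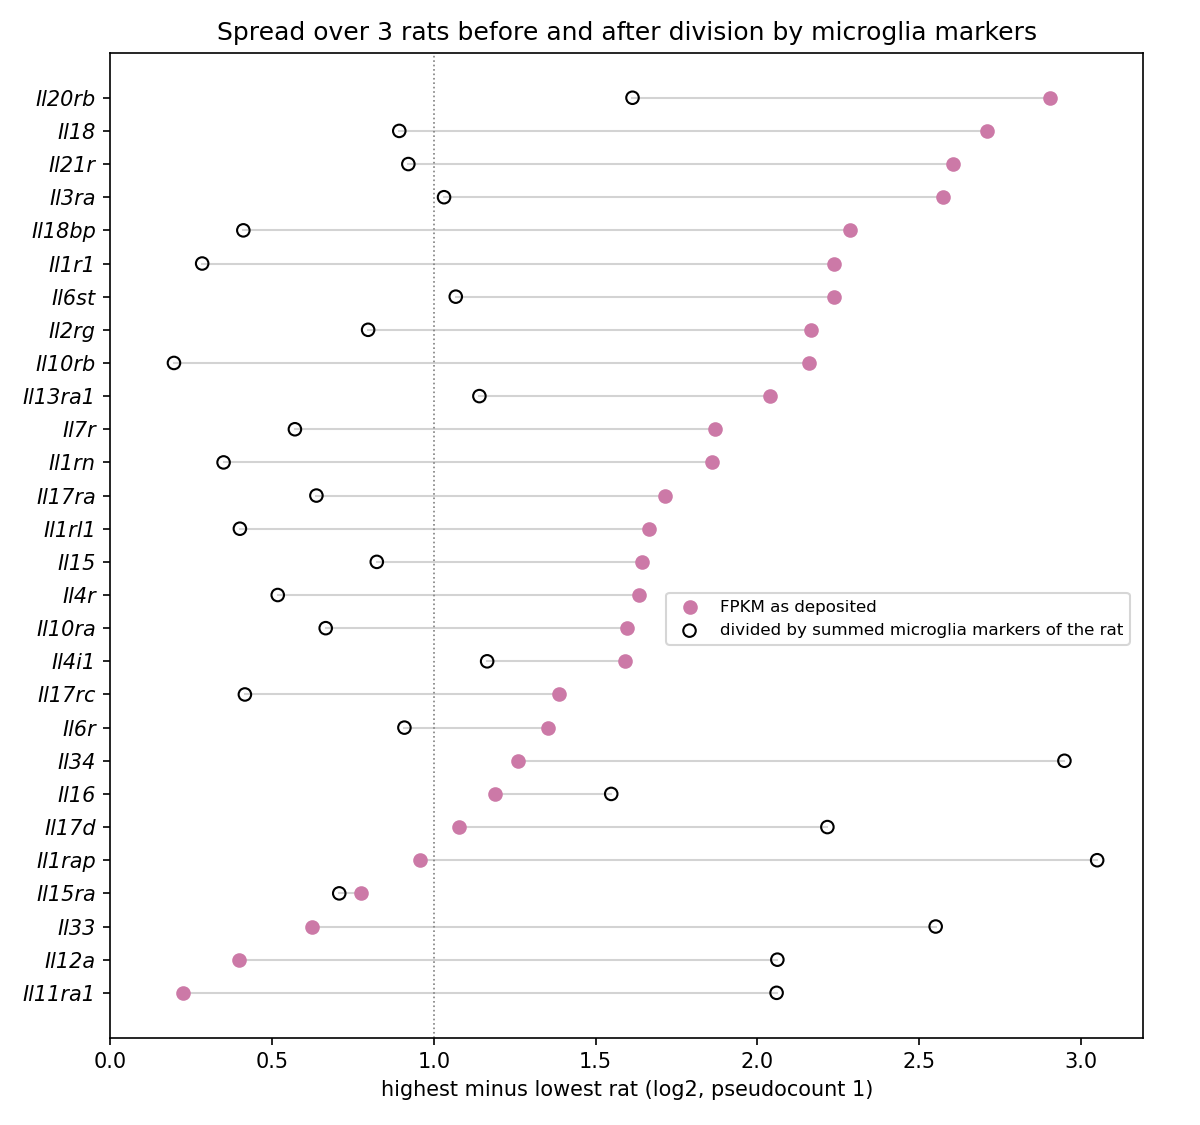
Distance between the highest and lowest rats (log2, pseudocount 1) for the 28 interleukin genes, as deposited (filled) and after division by the summed microglia markers of the same rat (open); the dotted line marks 2-fold. The distance is smaller after division for 21 genes and larger for 7, among them Il34, Il33 and Il1rap.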

How the data were processed

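RNA of the motor cortex of 3 rats was sequenced as mRNA libraries. The deposited values are FPKM per Ensembl gene: per the series' design text, the authors normalized the number of fragments of a gene and used a Perl script to obtain FPKM. The submitters' processing notes name HISAT2 2.0.4, StringTie 1.3.0 and Rnor 6.0, without roles. Strand use and multi-mapping reads are not given in the sources used here, so levels of near-identical or overlapping genes may be mixed.

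The animal numbers in the labels were taken as separate rats. With 1 group no test between groups was possible. Values were analysed as log2(FPKM + 1), with calls for genes at a mean of 1 FPKM or more, over all 30957 genes (Python 3.11.15, numpy 2.4.6, pandas 2.3.3, scipy 1.17.1). Library depth was read from the steps of low values: of 508 genes under 0.3 FPKM, 97.4% had values in whole-number ratios within 0.2%, with up to 25 fragments, against 1.97% after random changes of the values. The calls were tested on simulated data. Shifts were placed in abundant genes only and no counting error was added, so calls of genes near the minimum were not covered.

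Every interleukin gene at 1 FPKM or more in any rat is named, 36 in all; of each further list, the 3 highest and the 3 most variable genes. A gene that this rule names is not reported here. The genes and lists were chosen with earlier results of these data known, and roles were assigned after values were seen. Of these 36 genes, 6 overlap a gene on the opposite strand. The longest overlap was that of Il2rg, over 7281 bases, with a gene listed at 0.233, 0.220 and 0.226 FPKM in rats 19, 35 and 70. Stat4 and the endothelium marker Pecam1 were not found by name, so the endothelium sums cover 7 of 8 listed markers. The fibroblast marker Col1a2 was listed at 0 in all rats. Other pseudocounts, minimums and scalings, and leaving out each rat, were tried as alternatives.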

Additional observations from a re-analysis of the deposited data

How the results depend on the processing

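With 3 rats of 1 group, 1 rat decides much of the spread. Leaving out each rat in turn gave 27 to 29 interleukin genes at the minimum, 6 to 20 over 2-fold apart (6 without rat 35, 20 without rat 19, 18 without rat 70), 24 to 25 highest in rat 35 (of all genes 56.5% without rat 19 and 53.6% without rat 70), and median deviations of -0.52 to 0.28 in rat 19, 0.52 to 0.82 in rat 35 and -0.82 to -0.28 in rat 70. The median of rat 19 was 0.28 without rat 35 and -0.10 with all rats. The lower numbers over 2-fold apart rest on fewer rats. All genes over 2-fold apart then made up 11.1% without rat 35, 37.2% without rat 19 and 26.0% without rat 70.

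A minimum of 5 FPKM left 17 interleukin genes, of which 14 were over 2-fold apart and 14 highest in rat 35, against 40.9% and 45.3% of all genes. No minimum gave 65 genes, 39 of them highest in rat 35, against 41.3% of all genes, and the medians of rats 35 and 70 were then 0.18 and -0.16. Divided by summed microglia markers, 12 were over 2-fold apart, 3 were highest in rat 35, and the medians were 0.19, -0.17 and 0.23 in rats 19, 35 and 70 (-0.10, 0.93 and -0.68 as deposited), each with the opposite sign; the cause was not tested. A pseudocount of 0.1, a minimum of 0.5 FPKM, rescaling all libraries to an equal sum (which raised the median gene by 0.84, log2) and scaling by the median of ratios (-0.04) kept the direction of these results. For the 36 named genes, the difference of rat 35 from the mean of the other rats kept its direction in 178 of 180 recomputations. These used a pseudocount of 0.1, both scalings, or left out rat 19 or rat 70. Division by microglia markers was not among them. Scaling factors were similar between rats, so scaling could hardly change a direction. Some named genes reached 1 FPKM in 1 rat only, so the naming rule had fixed their highest rat. Without rat 70 the difference of Il1rap became 0.16 and that of Il12rb2 became 0.09, from -0.32 and -0.61. No paired analysis was possible because there is 1 group, and the partner ratios compare genes within a rat. Genes under 1 FPKM rest on few fragments.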
